A study of Mus musculus with 12 samples.

Results

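Germ cell translational regulators are described here through the messenger RNAs (mRNAs) that encode 9 of them, Dazl, Boll, Cpeb1, Cpeb2, Ybx2, Ybx3, Pum2, Nanos2 and Nanos3. They were taken by gene symbol from the gene rows of 3 tables of normalised read counts, 9 of 20981 genes, and all 9 were listed in each table. The tables hold RNA and not protein, so every value below is a level of the regulator's own mRNA. Nanos2 and Nanos3 were close to the detection limit and are given separately from the other 7 genes.

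All 12 RNA-seq libraries came from testes of C57BL/6 Mael-/- mice of about 3 months, so every group carries the same deletion and there is no Mael+ control among them. TOTAL is RNA of the clarified testis extract in 10 mM EDTA, and INPUT is RNA of fractions 5 to 8 of a 10 to 50% sucrose gradient run on that extract. IP is RNA pulled from INPUT by an antibody to ORF1p, the RNA-binding protein encoded by the LINE-1 (L1) retrotransposon, and BO (beads only) is RNA held by the same carrier beads with no antibody, sequenced from the same volume as the matching IP. Each group has 3 libraries, and the 3 tables compare IP with BO, INPUT and TOTAL in turn, so the same 3 IP libraries stand in every comparison.

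Translation of stored mRNAs is central to male germ cells, which make many transcripts well before the protein is needed. Dazl and Boll belong to the DAZ family of RNA-binding proteins, CPEB proteins bind a U-rich element in the 3′ UTR and control the length of the poly(A) tail, and Y-box proteins such as Ybx2 and Ybx3 coat and store mRNAs. Pumilio and Nanos proteins repress target mRNAs, largely by recruiting the CCR4-NOT deadenylase.

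The deposited gene values are group means. For IP, reads per library could be recovered as whole numbers for 100.00% of the 19151 genes with an IP mean above 0, because the same libraries were normalised separately in 3 tables, and their spread is therefore given as SD with n = 3. The 3 IP libraries, called a, b and c because they could not be matched to replicate numbers, held 21387454, 19754089 and 20549345 reads on genes. For BO, INPUT and TOTAL only the mean is known, so whether single libraries of those groups overlap with IP was not seen, and no test between groups was run on these means. The authors' own test columns were not used. As a measure of scale, values per library were deposited for repeat subfamilies, and those whose mean reached 100 had a 90th percentile SD of log2 values of 0.295 in BO, 0.279 in INPUT, 0.352 in TOTAL and 0.296 in IP. With such a spread in both groups, a log2 ratio of 2 means would have a standard error of 0.24 for IP against BO, 0.23 against INPUT and 0.27 against TOTAL. Among IP genes the SD of Ybx2 was 0.07, of Pum2 0.13, of Dazl 0.15, of Boll 0.18, of Ybx3 0.20, of Cpeb1 0.30 and of Cpeb2 0.41, against a median of 0.189 and a 90th percentile of 0.333 over 10263 genes. IP genes thus varied more than IP repeat subfamilies (median 0.123), so the standard errors above may be too small for genes, and Cpeb2 varied more than they assume.

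The tissue label was checked with markers. Mael, the deleted gene, was listed at 0 in IP and INPUT and at no more than 0.650 in the other groups. In TOTAL, the summed means were 30018 over 11 spermatocyte markers, 85411 over 8 Sertoli markers, 81766 over 7 Leydig markers and 381 over 10 spermatid markers. Single markers ranged widely, from 13.2 (Ccna1) to 9433 (Sycp1) among the spermatocyte genes. Clu at 66084 made up most of the Sertoli sum. Spaca1 at 231 made up most of the spermatid sum, while Prm1 and Tnp1 were at 22.0 and 30.1. In these bulk samples, fewer cells of a type and less RNA per cell cannot be told apart.

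A log2 ratio below is log2 of (IP mean + 1) over (other mean + 1), and genes entered a comparison when the average of the 2 group means was at least 10. Against BO, 5 of the 7 regulators that passed this filter were higher in IP by more than 2-fold (Dazl, Boll, Cpeb1, Ybx2 and Ybx3) and 2 were lower (Cpeb2 and Pum2). Over all 13634 genes tested, 43.9% were higher and 11.2% lower, and the median gene stood at 0.81. Against INPUT, 5 of 7 were higher (Dazl, Boll, Cpeb1, Cpeb2 and Ybx3) and none was lower, beside 20.5% higher and 14.6% lower among 14400 genes. That count was 2, Dazl and Boll, when the groups were scaled to the upper quartile or to the sum of gene means. Against TOTAL, 6 of 7 were higher, all but Ybx3, and none was lower, beside 20.4% higher and 26.2% lower among 14666 genes. That count was 5 when scaled to the upper quartile, without Ybx2, and 4 when scaled to summed gene means, without Ybx2 and Pum2. The members' median log2 ratio was 2.18 against BO, 1.33 against INPUT and 1.70 against TOTAL, where the medians of all genes tested were 0.81, 0.15 and -0.03. The 3 comparisons share the IP libraries and are therefore not independent of each other.

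**Figure D1:**
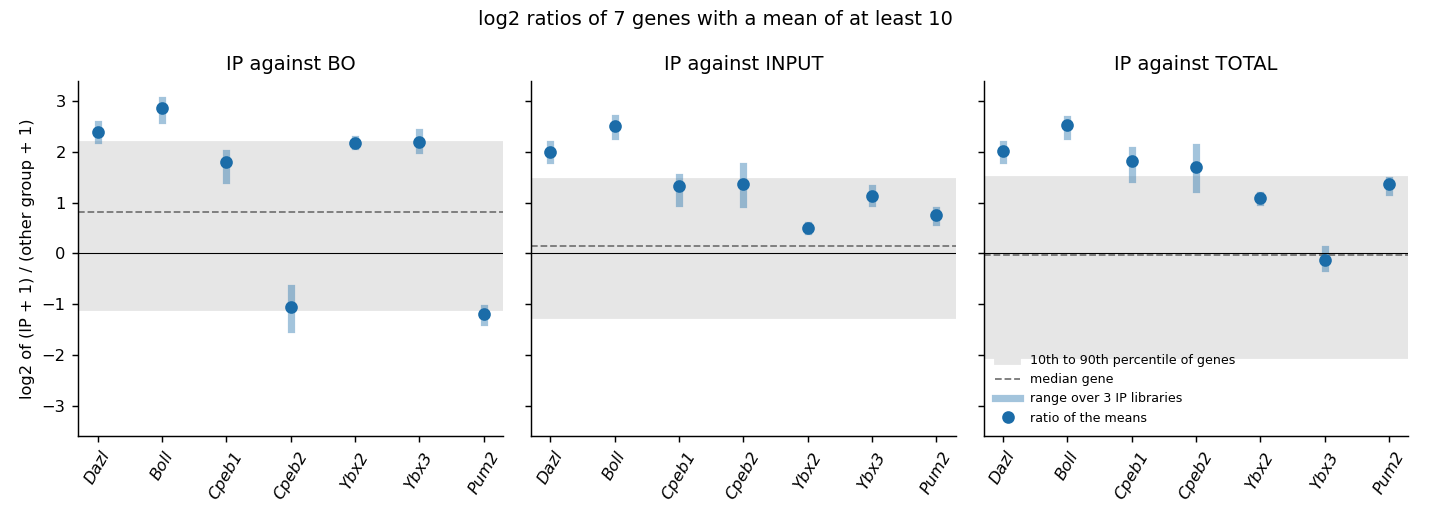
log2 ratios of IP to BO, INPUT and TOTAL for the 7 regulators with a mean of at least 10. Points are ratios of group means, thick bars span the ratios obtained with each of the 3 IP libraries, the dashed line is the median gene and the grey band the 10th to 90th percentile of genes. Boll is the highest of the 7 in each panel, and Cpeb2 (-1.06) and Pum2 (-1.19) are below 0 only against BO.

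Dazl, a translational activator that germ cells need from before meiosis, was the most abundant of the 9 mRNAs per kb of transcript in TOTAL, INPUT and IP. Dazl lies at chr17:50279395-50293636 of mm10, on the minus strand (ENSMUSG00000010592.9). The 3 IP libraries held 51442, 53065 and 44823 Dazl reads. In the table with INPUT, IP libraries a, b and c had normalised counts of 51101, 63141 and 56399, with a mean of 56880 ± 6034 (SD, n = 3), and the INPUT mean was 14267. All 3 IP libraries were thus far above the INPUT mean, and the log2 ratio was 2.00, with 1.84 to 2.15 over the IP libraries. Dazl had a BO mean of 8198 beside an IP mean of 43384 ± 4958 (SD, n = 3), a log2 ratio of 2.40, and a TOTAL mean of 13894 beside an IP mean of 56592 ± 5891 (SD, n = 3), a log2 ratio of 2.03. Among all genes these ratios ranked at the 93.2 percentile against BO, 96.8 against INPUT and 95.8 against TOTAL.

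Boll, the relative of Dazl in the DAZ family, had the largest ratios of the 7 genes. It lies at chr1:55248658-55363469, minus strand (ENSMUSG00000025977.15), and was read 3398, 3624 and 3121 times in the IP libraries. The mean of Boll was 3872 ± 471 (SD, n = 3) in IP and 673 in INPUT, a log2 ratio of 2.52 that ranked at the 99.3 percentile of genes. Against BO, with a mean of 406 beside 2954 ± 387 (SD, n = 3) in IP, the log2 ratio was 2.86, and against TOTAL, with 667 beside 3853 ± 476 (SD, n = 3), it was 2.53. The lowest IP library still gave 2.64, 2.32 and 2.31 in the same order. Boll was more enriched than Dazl in each IP library, since the log2 ratio of Dazl to Boll per kb of transcript was 4.20 in TOTAL, 4.23 in INPUT and 4.16 in BO but between 3.67 and 3.74 in the 3 IP libraries.

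**Figure D2:**
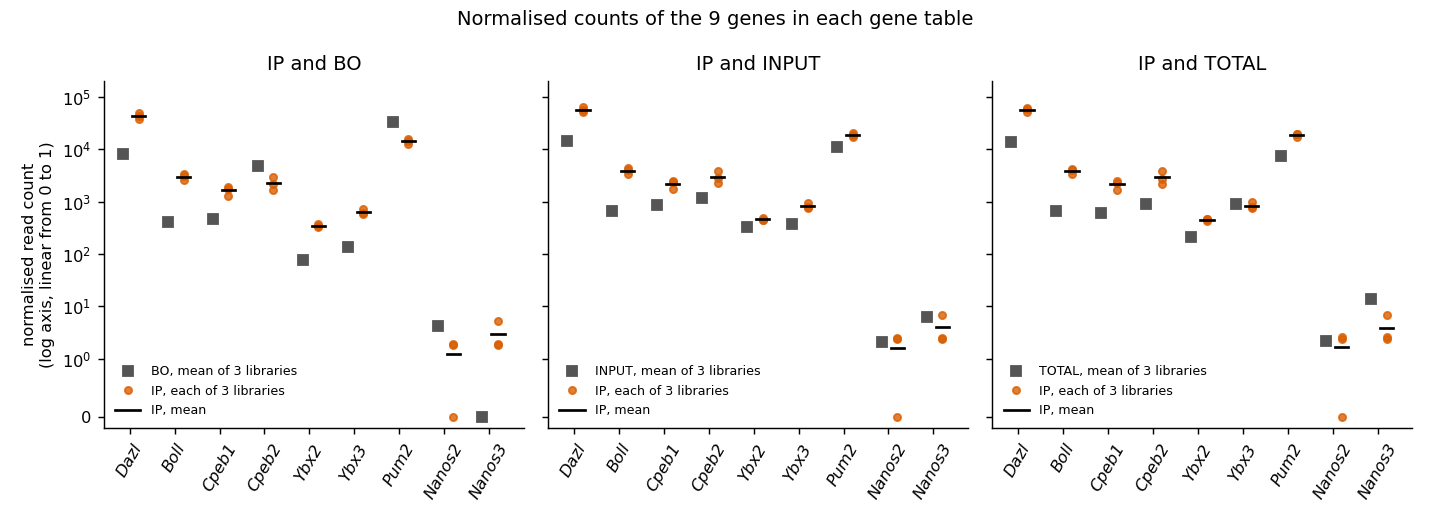
Normalised read counts of the 9 mRNAs in the 3 gene tables, on a log axis that is linear below 1. Grey squares are the mean of BO, INPUT or TOTAL, orange points are single IP libraries and black bars their mean. For Cpeb2 and Pum2 the BO square is above all 3 IP points, and Nanos2 and Nanos3 have means of 13.9 or less throughout.

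Cpeb1 and Cpeb2, which share the CPEB type of RNA-binding domain, were alike against INPUT and TOTAL and opposite against BO. Cpeb1 (chr7:81347026-81455465, minus strand, ENSMUSG00000025586.17), which promotes cytoplasmic polyadenylation and is needed in meiotic prophase, was read 1728, 1948 and 1941 times in IP. Its mean was 1648 ± 315 (SD, n = 3) in IP against 472 in BO, a log2 ratio of 1.80. Against INPUT, with a mean of 860 beside 2159 ± 388 (SD, n = 3) in IP, the log2 ratio of Cpeb1 was 1.33, and against TOTAL, with 607 beside 2152 ± 420 (SD, n = 3), it was 1.82. All 3 IP libraries were above each of these means, and relative to the median gene the BO ratio of Cpeb1 was 0.99.

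Cpeb2 (chr5:43233170-43289724, plus strand, ENSMUSG00000039782.14), a CPEB protein of the second subgroup with Cpeb3 and Cpeb4, was read 2247, 2354 and 3004 times in IP. Its mean was 2938 ± 783 (SD, n = 3) in IP and 1143 in INPUT, a log2 ratio of 1.36, and 2935 ± 855 (SD, n = 3) in IP against 903 in TOTAL, a log2 ratio of 1.70. Its share of the BO libraries was larger. The BO mean of Cpeb2 was 4668, while the IP libraries had 1677, 2143 and 2913, a mean of 2244 ± 624 (SD, n = 3). Every IP library was below the BO mean, and the log2 ratio was -1.06, with -1.48 to -0.68 over the IP libraries and -0.88 without IP library a, which took Cpeb2 out of the count of lower genes. Cpeb2 was 1 of 12 genes that were more than 2-fold lower in IP than in BO and more than 2-fold higher in IP than in INPUT, out of 1473 genes lower than in BO. Both ratios share the IP libraries, and the place of Cpeb2 in this set is close to the cut. Its ratio to INPUT was 0.95 when scaled to the upper quartile and 0.83 when scaled to summed gene means, both under 2-fold.

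Pum2, a Pumilio repressor expressed in germ cells and many other tissues, had the same pattern with smaller enrichment. It lies at chr12:8674134-8752581, plus strand (ENSMUSG00000020594.14), and was read 17179, 16986 and 15013 times in IP. The BO mean of Pum2, 32624, was 2.28 times the IP mean of 14279 ± 1343 (SD, n = 3), and the log2 ratio of -1.19 lay between -1.35 and -1.08 over the IP libraries. Pum2 was the most abundant of the 9 mRNAs in BO per kb of transcript, at 5169 against 2755 for Dazl. Against INPUT, with a mean of 11104 beside 18722 ± 1580 (SD, n = 3) in IP, the log2 ratio was 0.75, which is under 2-fold. That ratio was 0.34 when scaled to the upper quartile and 0.22 when scaled to summed gene means. Against TOTAL, with 7261 beside 18633 ± 1631 (SD, n = 3), it was 1.36, or 0.84 when scaled to summed gene means.

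**Figure D3:**
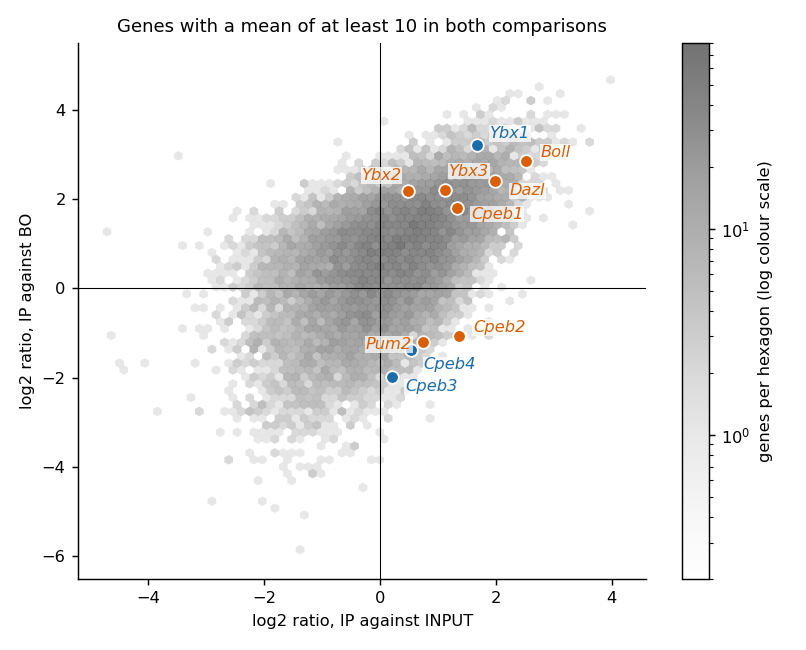
log2 ratio of IP to BO (vertical axis) against log2 ratio of IP to INPUT (horizontal axis) for 13578 genes with a mean of at least 10 in both comparisons, as hexagons shaded by the number of genes. Orange points are the 7 regulators and blue points 3 relatives. Dazl, Boll, Cpeb1, Ybx2 and Ybx3 are in the upper right part, while Cpeb2 and Pum2 lie in the lower right with Cpeb3 (-1.98 against BO) and Cpeb4 (-1.37). The 2 axes share the IP libraries.

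Of the Y-box genes, Ybx2 was higher in IP than in TOTAL by more than 2-fold as normalised by the authors, and Ybx3 was not. Ybx2 (chr11:69935796-69941605, plus strand, ENSMUSG00000018554.13), the germ cell Y-box protein also called MSY2, was read 441, 403 and 357 times in IP. The mean of Ybx2 was 347 ± 18.9 (SD, n = 3) in IP and 75.6 in BO, a log2 ratio of 2.18. It was 456 ± 21.5 (SD, n = 3) in IP and 323 in INPUT, a log2 ratio of 0.50, and this small difference was -0.04 when the groups were scaled to summed gene means. Against TOTAL, with a mean of 211 beside 453 ± 20.4 (SD, n = 3), Ybx2 had a log2 ratio of 1.10, which was 0.89 when scaled to the upper quartile and 0.58 when scaled to summed gene means, both under 2-fold.

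Ybx3 (chr6:131364855-131388476, minus strand, ENSMUSG00000030189.15), also called MSY4, was read 762, 673 and 746 times in IP. Its IP mean was 635 ± 79.8 (SD, n = 3) beside 137 in BO, which is 4.63 times as high, and 832 ± 94.8 (SD, n = 3) beside 380 in INPUT, a log2 ratio of 1.13. Against TOTAL the groups could not be separated. The IP libraries had 744, 784 and 961, around the TOTAL mean of 905, and the log2 ratio was -0.13, with -0.28 to 0.09 over the IP libraries.

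Nanos2 and Nanos3, repressors that act in spermatogonia and in earlier germ cells, were near the limit of detection. Nanos2 (chr7:18987400-18988962, plus strand, ENSMUSG00000051965.8) had 0, 2 and 2 reads in the IP libraries, and its means were 4.14 in BO, 2.08 in INPUT and 2.16 in TOTAL. The BO mean corresponds to between 9 and 17 reads over the 3 BO libraries. Nanos3 (chr8:84173731-84185217, minus strand, ENSMUSG00000056155.6) had 7, 2 and 2 reads in IP, a mean of 6.31 in INPUT, and a mean of 13.9 in TOTAL, which corresponds to 43 to 66 reads. Nanos3 was listed at 0 in BO. A floor of 3 reads over the BO group is a mean of 1.51, so the IP mean of 2.99 in that table was at least 1.99-fold higher, a bound that rests on 11 IP reads, 7 of them in IP library a, and that is 1.25-fold without that library. The log2 ratio of Nanos2 in IP against BO was -1.19, from 4 IP reads, and it did not enter the counts because of the filter.

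INPUT can be set beside TOTAL, and BO beside INPUT, only across tables, with the IP libraries as the common term. Ybx3 was lower in INPUT than in TOTAL, with a log2 ratio of -1.26, whereas Ybx2 was at 0.60, Pum2 at 0.61, Cpeb1 at 0.50, Cpeb2 at 0.34, Dazl at 0.03 and Boll at 0.01. Thus Ybx3 was the only one of the 7 whose share of the libraries was more than 2-fold lower in INPUT than in TOTAL. This held under each pseudocount and scaling, between -1.26 and -1.06. Normalised counts give shares of a library, not amounts of an mRNA in the fractions or the extract. Nanos3, the other member counted as lower, was at -1.04 and between -1.14 and -0.56 under the same settings. With 6.31 in INPUT it passed the filter only through its TOTAL mean of 13.9. The filter thus fixed its direction, and its count as lower is not a result. Over 14620 genes 18.3% were lower and 2.31% higher in INPUT than in TOTAL.

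Cpeb2 and Pum2 made up a larger share of BO than of INPUT libraries, with log2 ratios of BO to INPUT of 2.42 and 1.95, at the 99.4 and 98.3 percentile of 13999 genes. Ybx2 was at -1.69 and Ybx3 at -1.07, or -0.51 relative to the median gene, while Dazl (-0.41), Boll (-0.34) and Cpeb1 (-0.48) were close to the median gene of -0.56. Over all genes 9.32% were higher and 34.4% lower in BO than in INPUT. Nanos2 (0.96) and Nanos3, which was listed at 0 in BO, did not pass the filter there, nor did Nanos2 (-0.04) in INPUT against TOTAL. Per kb of transcript, the log2 ratio of Cpeb1 to Cpeb2 was 0.61 in TOTAL, 0.77 in INPUT and 0.55 to 0.91 in the IP libraries, but -2.13 in BO.

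Levels of different genes were compared per kb of the longest annotated transcript. In TOTAL the order was Dazl (4669 normalised counts per kb), Pum2 (1151), Ybx3 (489), Boll (253), Cpeb1 (195), Cpeb2 (128), Ybx2 (126), and then Nanos3 and Nanos2 (1.38). Cpeb2 and Ybx2 cannot be told apart there, but were at 509 and 171 when the median transcript length was used. With that length Ybx3 and Boll changed places, at 875 and 888. Dazl was at the 99.4 percentile and Ybx2 at the 47.3 percentile of 14063 genes. In IP, in the same table, the order was Dazl (19016), Pum2 (2952), Boll (1462), Cpeb1 (692), Ybx3 (448), Cpeb2 (416), Ybx2 (271), Nanos3 (5.36) and Nanos2 (1.05). By the longest transcript, Boll and Cpeb1 stood above Ybx3 in IP and below it in TOTAL. By the median transcript length, Boll was above Ybx3 in TOTAL too, and Cpeb1 was close to it, at 846 beside 875.

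The 7 mRNAs also differ in their 3′ UTRs, where CPEB, Pumilio and DAZ proteins bind. In GENCODE M21 (mm10) the 3′ UTR of the longest coding transcript is 3778 bases in Cpeb2, 2841 in Pum2, 1852 in Dazl, 1786 in Boll, 1315 in Cpeb1, 947 in Nanos2, 584 in Ybx3, 414 in Ybx2 and 172 in Nanos3, with a median of 939 over 21027 protein-coding genes. Cpeb2 and Pum2, the 2 mRNAs past the filter that were lower in IP than in BO, thus have the longest 3′ UTRs of the 9. Dazl and Boll, also above that median, were higher in IP than in BO, at 2.40 and 2.86. Genes more than 2-fold lower in IP than in BO had a median 3′ UTR of 2624 bases (1344 protein-coding genes), against 702 bases in those more than 2-fold higher (5588 genes). The 2 sets also differed in median transcript length, at 4975.5 and 2897.5 bases, and in median GC content, at 45.2% and 51.4%. The part of 3′ UTR length, transcript length or GC content in the BO values of Cpeb2 and Pum2 was not tested.

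**Figure D4:**
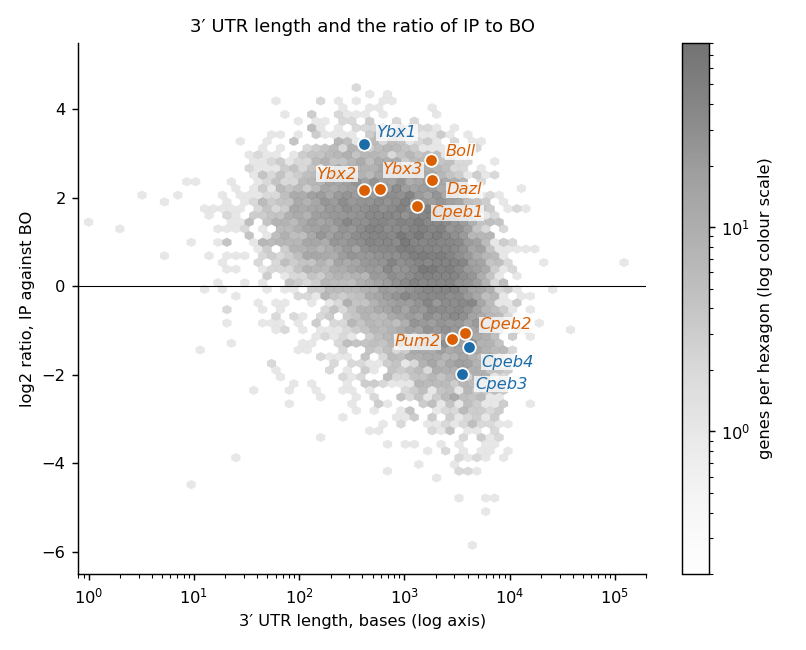
log2 ratio of IP to BO (vertical axis) against the length of the annotated 3′ UTR in bases (horizontal log axis) for 12590 genes, as hexagons shaded by the number of genes. Orange points are the 7 regulators and blue points 3 relatives. Cpeb2 (3778 bases) and Pum2 (2841 bases) lie at long 3′ UTRs and below 0, next to Cpeb3 and Cpeb4, while Dazl and Boll, also above the median length, lie above 2.

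The Pumilio-type element TGTANATA (read on the sense strand, as DNA) was searched because a Pumilio mRNA is among the members. It was present in none of 8 members with at least 300 bases of 3′ UTR in the last 300 bases, where 9.58% of 16349 genes hold it, and in the whole 3′ UTR in 3 of 9 members, where 23.2% of 21027 genes hold it. In genes with a 3′ UTR of at least 2000 bases the share was 49.0%. The 3 members were Cpeb1, Cpeb2 and Pum2 itself, and their 4 matches are shown with flanking bases, the element in capitals:
Cpeb1, chr7:81347544-81347571, minus strand: gagcagctgcTGTATATAgttttaaatg
Cpeb2, chr5:43286404-43286431, plus strand: gttttcagtgTGTACATAaactaaaaat
Pum2, chr12:8750155-8750182, plus strand: tttatagagaTGTATATAgaattatagt
Pum2, chr12:8750408-8750435, plus strand: tgtacagaatTGTATATActtataattg

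The CPEB-type element TTTTAT (sense strand, overlapping matches counted) was in the last 300 bases of 4 of 8 members, against 29.2% of 16349 genes, and anywhere in the 3′ UTR of 8 of 9 members, all but Nanos3, against 51.2% of 21027 genes and 77.8% of the 10095 genes with a 3′ UTR of at least 1000 bases. Cpeb2 held 20 matches, a number reached by 17 of 2790 genes (0.609%) with a 3′ UTR of at least 3000 bases, whose median was 4. Dazl and Pum2 held 5 each, Boll 4, Cpeb1 2, and Ybx2, Ybx3 and Nanos2 1 each. The distance of the nearest match from the 3′ end was counted from the first base of the element. It was 62 bases in Ybx2, 86 in Nanos2, 119 in Ybx3, 159 in Cpeb2, 324 in Cpeb1, 373 in Dazl, 715 in Boll and 925 in Pum2. Short 3′ UTRs, as in Ybx2 (414 bases) and Ybx3 (584), limit this distance, and distances over all genes were not computed. The match nearest to the 3′ end is shown for each of the 8, with the element in capitals:
Dazl, chr17:50279753-50279780, minus strand: agtcaaaattcTTTTATgtcaccaagtc
Boll, chr1:55269554-55269581, minus strand: gaaatacctctTTTTATatttattagaa
Cpeb1, chr7:81347333-81347360, minus strand: ttccttacaacTTTTATttgacgaatgt
Cpeb2, chr5:43289555-43289582, plus strand: aatttagtttaTTTTATtgttatcttcc
Ybx2, chr11:69941533-69941560, plus strand: ctctgaagccaTTTTATgaactgtcatg
Ybx3, chr6:131364957-131364984, minus strand: ttaagaagaaaTTTTATgcccttattta
Pum2, chr12:8751626-8751653, plus strand: agaagggatttTTTTATtcgaggtctgc
Nanos2, chr7:18988866-18988893, plus strand: tgccagttgggTTTTATgctatctagga
These matches are letters in the annotated 3′ UTRs and do not show that a protein binds there or which 3′ end is used in the testis.

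**Figure D5:**
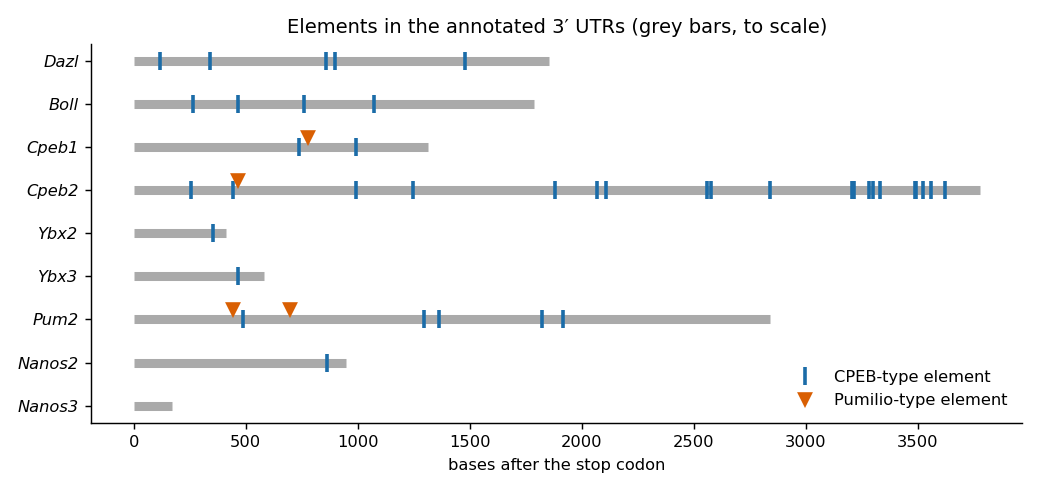
Positions of CPEB-type (blue bars) and Pumilio-type (orange triangles) elements in the annotated 3′ UTRs of the 9 genes, drawn to scale as grey bars from the stop codon, in bases. Cpeb2 holds 20 CPEB-type elements, with those towards its 3′ end closest together, and both Pumilio-type elements of Pum2 start within the first 698 bases.

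Relatives of the members were read from the same tables. Cpeb3 and Cpeb4, like Cpeb2, were lower in IP than in BO, with log2 ratios of -1.98 and -1.37, and have 3′ UTRs of 3569 and 4102 bases. Against INPUT they were at 0.22 and 0.54, below the 1.36 of Cpeb2. Ybx1, the widely expressed Y-box gene, was at 3.20 against BO, 1.68 against INPUT and 0.39 against TOTAL, and was lower in INPUT than in TOTAL (-1.29), as Ybx3 was. Dazap1, an RNA-binding protein named for its interaction with DAZ, was at 2.44, 1.34 and 0.72 in the same order, and Nanos1 was at -0.21, -0.02 and 0.01. The 3′ UTRs of Ybx1, Dazap1 and Nanos1 are 418, 697 and 2845 bases, and that of Nanos1 is thus as long as that of Pum2 (2841).

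The machinery that Pumilio, Nanos and CPEB proteins act through is the CCR4-NOT complex and the other factors that set the length of the poly(A) tail. Of 30 listed genes for it, 29 passed the filter against INPUT, of which 12 were higher and none lower by more than 2-fold (20.5% and 14.6% of all genes), with a median log2 ratio of 0.89 beside 0.15 for all genes. Against BO 11 of 29 were higher and 1, Cnot6, was lower, no larger a share than the 43.9% and 11.2% of all genes. Against TOTAL 7 were higher and none lower, where 20.4% and 26.2% of all genes were. The largest INPUT ratios were those of Btg4 (2.65), an adaptor of the deadenylase in germ cells with only 10.5 in INPUT and 71.5 in IP, Pabpc1 (2.42), the main cytoplasmic poly(A) binding protein, Cnot2 (1.90), a core subunit, and Paip1 (1.76), a partner of Pabpc1. Against BO, Btg4 was at 3.27, Pabpc1 at 3.24 and Cnot2 at 1.94, but Paip1 was at 0.08. Btg4, at 4.75 in BO, passed the filter there only through IP. Of 41 genes for proteins of stored or repressed mRNPs, 18 were higher and 3 lower than in INPUT (20.5% and 14.6% of all genes), with a median of 0.77 beside 0.15 for all genes. Against BO 19 were higher and 7 lower (43.9% and 11.2% of all genes), with a median of 0.61 that was below the 0.81 of all genes, and against TOTAL 18 were higher and 3 lower (20.4% and 26.2%). Against INPUT, Ptbp2 (2.00), Fxr1 (1.97) and the testis helicase Ddx25 (1.97) led the higher ones, and Msi2 (-2.08) was the lowest. The other 2 genes lower than in INPUT, Msi1 (-1.09) and Rbms1 (-1.26), are named because they complete a small count.

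Messenger RNAs that are named in the literature as bound by members did not all behave alike in these extracts. Of 19 listed genes 13 passed the filter against INPUT, of which 7 were higher by more than 2-fold and 1, the flagellar gene Akap4 (-1.11), was lower, beside 20.5% and 14.6% of all genes. Akap4 had 16.4 in INPUT and 7.08 in IP, so it passed the filter only through INPUT. The largest log2 ratios against INPUT were those of Sycp3 (3.06), Sycp1 (2.55), Taf7l (2.38) and Ddx4 (2.21), meiotic and germ cell genes that have been described as Dazl targets. Dazl itself stood at 2.00. The protamine and transition protein genes, whose storage is attributed to Ybx2, did not pass the filter against INPUT, since Prm1, Prm2, Tnp1 and Tnp2 had TOTAL means of 22.0, 13.2, 30.1 and 39.3 and INPUT means under 10. Against TOTAL 17 of the 19 genes passed, of which 8 were higher and 6 lower (20.4% and 26.2% of all genes), with a median of 0.18 beside -0.03 for all genes. Among the 6 were Prm1 (-3.63), Tnp1 (-4.18) and Tnp2 (-4.56), with 2 or fewer reads of each per IP library. These genes, Odf1 (-3.22) and Akap4 (-2.80) passed the filter only through their TOTAL means. The filter thus left them no direction but lower. Against BO 12 passed, of which 11 were higher and 1 lower (43.9% and 11.2% of all genes).

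Cell type markers moved with these ratios, and their counts are to be read beside the 20.5% of all genes that were higher and the 14.6% that were lower in IP than in INPUT. Of 10 spermatocyte markers with enough reads, 8 were more than 2-fold higher in IP than in INPUT and none lower (median 2.01, led by Sycp3, Hormad1, Sycp1 and Dmc1), and their summed mean over 11 listed markers was 35946 in INPUT and 172549 in IP. Of 8 Sertoli markers 5 were lower and none higher (median -1.47, summed mean 88665 in INPUT and 25371 in IP). Clu made up most of both Sertoli sums, at 78351 in INPUT and 20843 in IP. Of 7 Leydig markers 6 were lower and none higher (median -1.93, summed mean 44923 in INPUT and 15716 in IP). Of 10 spermatogonial markers 2, Zbtb16 (-1.15) and Ret (-1.17), were lower and none higher (median -0.77). The share lower was near that of all genes, but all 10 lay below 0, between -1.17 and -0.24. None of these 36 listed markers was at 0 in TOTAL. All 7 regulators had log2 ratios above 0 against INPUT as normalised by the authors, but so did the median gene (0.15). Ybx2 was at -0.04 when scaled to summed gene means. Spermatocyte markers past the filter were also above 0, and the part of the cell type in the regulators' values was not tested. Of 10 spermatid markers 3 passed the filter against INPUT, Spaca1 (1.48), Tssk1 and Izumo1 (-0.77), of which Spaca1 alone was past 2-fold. Against TOTAL 5 passed, of which 3 were lower (Prm1, Tnp1 and Tnp2) and 1, Tssk1 (1.13), was higher. The 3 lower ones passed only through TOTAL, so the filter left them no other direction. In that comparison all 10 spermatocyte markers past the filter were higher, beside 20.4% of all genes. There 7 of 8 Sertoli, 7 of 7 Leydig and 3 of 10 spermatogonial markers were lower and none higher, beside 26.2% of all genes lower.

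The genes nearest to each member over the 3 log2 ratios were sought among 10967 others with a mean of at least 100 over IP and TOTAL, by Euclidean distance. Nearest to Dazl were Rad18, Fsip1 and Spata17, at distances of 0.107 to 0.132, and nearest to Boll were Lrriq3, Ccdc79 and Gm6268, at 0.114 to 0.189. Cpeb1 had Nhej1, Ccdc39 and Tfip11 at 0.040 to 0.084, with 1099 genes within a distance of 1. Cpeb2 stood more alone, with Arid2 at 0.125, Spen at 0.294 and Tmem170b at 0.374, and 126 genes within a distance of 1. Nearest to Pum2 were Rictor (0.108), Zfx (0.127) and Arid1a (0.136). Ybx2 had Tcea2, Gpc2 and Srrt at 0.158 to 0.209, and Ybx3 had Rsl1d1, Upf3a and Psmd12 at 0.039 to 0.088. For Nanos3, whose ratios rest on few reads, they were Rogdi, Rnd2 and 2310011J03Rik.

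Some member rows could share reads with an annotated gene on top of them. On the same strand, where stranded counting cannot separate reads, Cpeb2 overlaps Gm42551 by 1573 bases and 6030400A10Rik by 1212 bases, Ybx3 overlaps the snoRNA gene Gm22362 by 134 bases, and Nanos3 overlaps the miRNA genes Mir181c and Mir181d by 89 and 72 bases. On the opposite strand, Cpeb2 overlaps the antisense gene Gm7854 by 2186 bases, and Gm7854 had means of 1.95 or less in every group. Boll and Cpeb1 overlap processed pseudogenes on the opposite strand by 396 and 777 bases, and Nanos2 overlaps an antisense gene by 766 bases. The library kit keeps strand, and the strand setting of the counting is not given in the sources used here.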

How the data were processed

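The 12 RNA-seq libraries were analysed from the deposited tables, and their groups were taken from the sample labels. Per the submitters' processing notes and methods, the authors aligned reads with STAR 2.6.0c (mm10) and normalised gene counts with DESeq2 1.24.0, separately for IP with BO, INPUT and TOTAL. The deposited signal used here is the mean of normalised counts per group in each of 802920 rows, of which 20981 are genes, with 3 decimals. Rows for reads on no gene stay out of all sums, and held 21.2 to 23.4% of counted reads in IP libraries, 37.9% in BO, 30.5% in INPUT and 38.6% in TOTAL. The tables' other columns hold the authors' own fold changes, standard errors, test statistics and p-values, and were not used. The repeat table, a signal of normalised counts per library made by the authors, served to describe spread between libraries and in an attempt to number the IP libraries. No column of values per sample was left without a sample.

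Reads of the 3 IP libraries were recovered by solving the 3 tables' means for whole numbers with a misfit of at most 0.0006, which was tested on simulated reads. Locus reads summed per subfamily did not match the repeat table, so the IP libraries carry letters. For the other groups the value of 1 read gave only bounds on the reads, with between 29291266 and 78365060 reads on genes per group. Intervals and floors cover counting error only. Log2 ratios used a pseudocount of 1 and a mean of at least 10. No test between groups was run on group means.

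The members and gene lists were chosen with earlier results of these data known. All 9 members are named. A result on 1 relative of the members is not reported here. Of the other lists, up to 4 genes with the largest absolute log2 ratio of IP to INPUT were to be named. Nanos1, Cnot6, Msi1, Rbms1, Akap4, Odf1, Ccna1, Prm1, Prm2, Tnp1 and Tnp2 lie outside that rule and were named after their values were seen. In addition, the 3 nearest genes are named for each member with a TOTAL mean of at least 10. Genes were matched by symbol to GENCODE M21, with positions, lengths and 3′ UTRs read with Python 3. Alternatives were pseudocounts of 0.1 and 10, 3 other scalings, no filter, a mean of at least 100, each IP library left out, the median transcript and the whole 3′ UTR.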

Additional observations from a re-analysis of the deposited data

How the results depend on the processing

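No log2 ratio past 2-fold changed sign under any pseudocount, scaling or omission of an IP library. Of 103 alternative counts, 91 stayed within 1.5 times the reported count. These include counts of 0 that stayed at 0. They also include counts of INPUT against TOTAL and BO against INPUT without 1 IP library. There the IP term cancels, so leaving out a library could hardly change them. Of 288 alternative log2 ratios, 73 moved by at least the gene's SD over the IP libraries. Without the filter, 1 member, Nanos3, was lower in IP than in TOTAL, and 3 in place of 2, with Nanos2, were lower in IP than in BO. Members higher in IP than in INPUT numbered 2 when scaled to the upper quartile and 2 when scaled to summed gene means, in place of 5, and members higher in IP than in TOTAL 5 and 4 in place of 6. Members lower in INPUT than in TOTAL numbered 1 with a pseudocount of 10, 1 when centred on the median gene, 1 when scaled to the upper quartile and 1 with a mean of at least 100, and members lower in BO than in INPUT numbered 1 when centred and 1 when scaled to the upper quartile. Leaving out IP libraries in turn gave 1 to 2 members lower in IP than in BO. Searching the whole 3′ UTR gave 3 members with TGTANATA and 8 with TTTTAT, since it is a longer sequence. Only IP libraries could be left out, because the other groups are known by their means. The sign of Dazl, Boll and Cpeb1 in BO against INPUT turned to 0.16, 0.23 and 0.09 when centred on the median gene. No paired analysis was possible because the gene tables give group means without replicate numbers. Depth limits Nanos2 and Nanos3.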
